A study of Sus scrofa with 8 samples.

Results

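The messenger RNA of AP-1 subunits and other immediate early genes was examined in the endometrium, the inner lining of the uterus, of 4 pregnant and 4 non-pregnant gilts (young female pigs) on day 14 after insemination. The set was named by gene symbol and held 10 genes: FOS, FOSB, FOSL1, FOSL2, JUN, JUNB, EGR1, ATF3, DUSP1 and MYC. Of these, 9 matched an Entrez gene in the count tables, out of 21064 genes in all, and each was represented by its transcript with the highest mean count. FOSB matched no row and is not analysed here. The study asked which endometrial messenger RNAs differ with early pregnancy.

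AP-1 is a transcription factor made of pairs of proteins that share a basic region, which binds DNA, and a leucine zipper, which holds the pair together. JUN proteins pair with each other or with FOS proteins, and FOS proteins need a JUN partner to bind DNA. Immediate early genes are transcribed within minutes of a stimulus without new protein synthesis, and many of their RNAs and proteins are short-lived. In the rodent uterus, FOS and JUN are known to respond to oestrogen.

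The pregnant animals were German Landrace gilts that had not reached puberty, treated with PMSG at 750 IU, which makes follicles grow, and 72 h later with hCG at 500 IU, which brings on ovulation, then inseminated with Pietrain semen at 24 h and 36 h after hCG. The control animals shared breed, age class and hormone treatment, and received semen supernatant of the same boar in place of semen. Pregnant tissue came from reddened zones of embryo attachment and control tissue from comparable places, so that pregnancy and the zone sampled cannot be told apart. Equal amounts of RNA from 3 places along a single horn were pooled for each animal, so that every library stands for a separate animal, and RNA integrity numbers lay between 7.0 and 8.8. The muscle layer was not included, and tissue went straight into RNAlater, an RNA preservative.

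Total counts per library were 29009827 to 41016150 in pregnant animals and 28035007 to 32639743 in controls. On the leading component of a principal component analysis, the groups separated, with pregnant libraries at 35.5 to 42.2 and controls at −46.1 to −42.3 except for control replicate 4, which stood apart at −27.8. Epithelial and stromal markers of the labelled tissue were present in every library: the summed level of 6 matched epithelial markers was 1378 to 1927 CPM in pregnant animals and 2047 to 3060 CPM in controls, and that of 6 stromal markers was 10291 to 15339 CPM in pregnant animals and 16852 to 20194 CPM in controls. CPM is the usual read count scaled to library size. Log2 changes are pregnant over control ± an SE derived from the F statistic of edgeR's quasi-likelihood test. A gene was called at a Benjamini-Hochberg adjusted p under 0.05 over the 18783 transcripts tested.

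In pregnant endometrium 5 of the 9 genes rose and none fell. FOSL1, ATF3, DUSP1, FOSL2 and JUNB rose by 2.80, 2.08, 1.77, 1.25 and 1.10 on the log2 scale, and for each of them all 4 pregnant animals lay above all 4 controls. FOS, JUN, EGR1 and MYC did not pass, and their groups overlapped. Of all transcripts tested, 11.2% were called higher and 10.1% lower, and for 13.2% every pregnant value lay above every control value. The median log2 change was 1.10 over the 9 genes and −0.02 over all transcripts tested. All 9 passed the filter on low counts, and FOSL1, the lowest, had 14 to 28 reads in each control library. In bulk tissue a higher share of a cell type and more RNA per cell cannot be told apart.

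**Figure D1:**
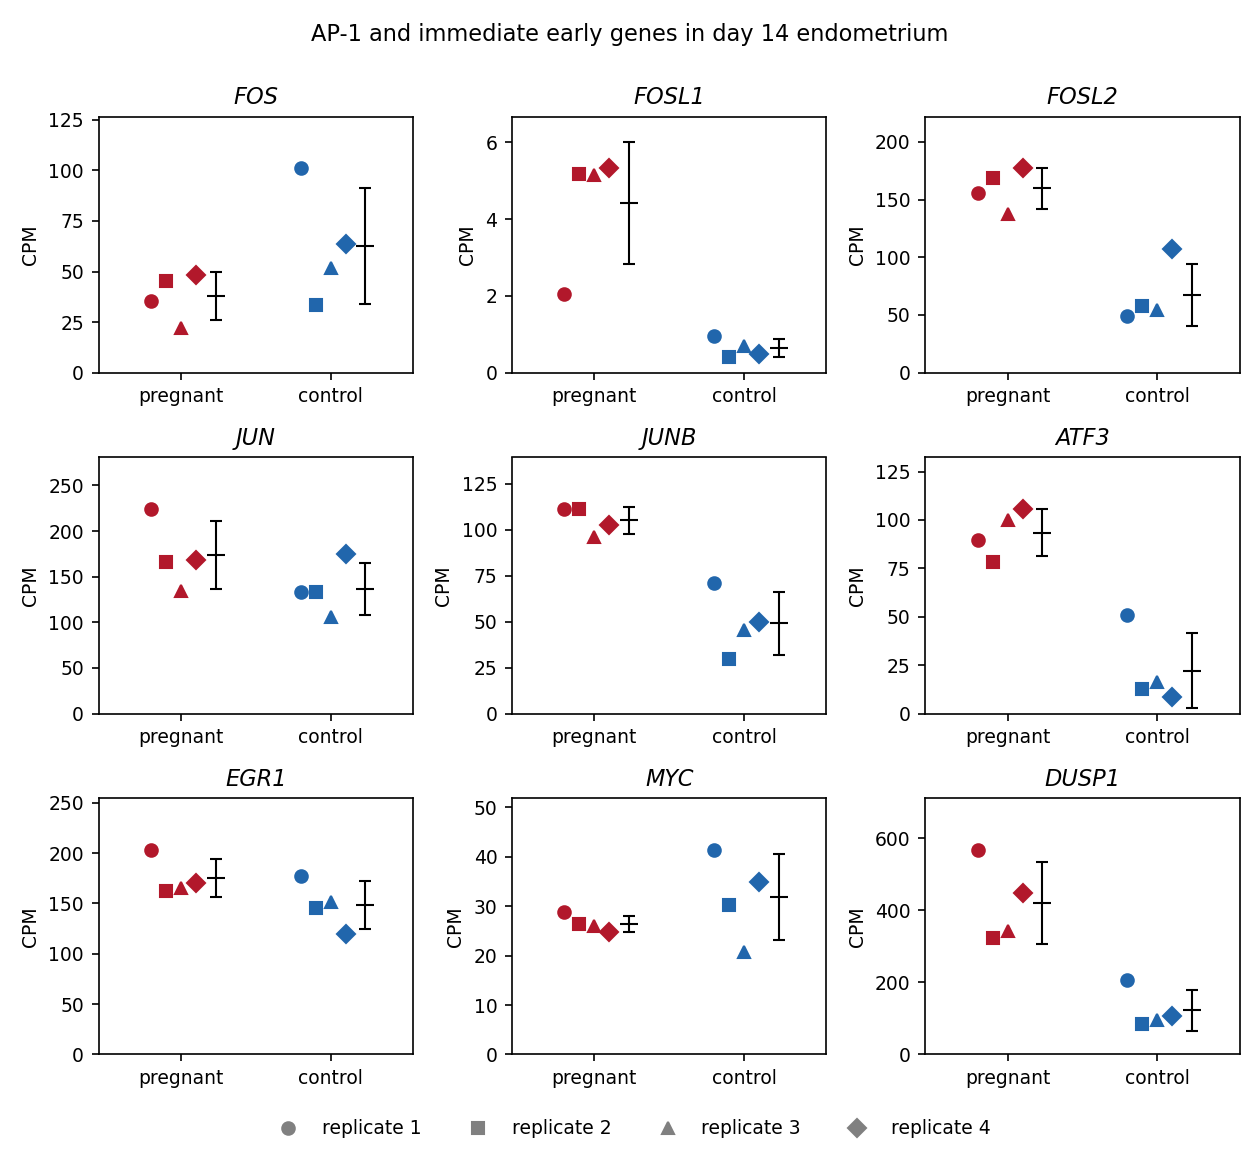
Level of each gene in CPM (linear axis from 0) in the 4 pregnant and 4 control libraries, with a marker shape for each replicate number and, beside the points, the mean and SD (n = 4). FOSL1, FOSL2, JUNB, ATF3 and DUSP1 show no overlap between the groups, whereas FOS, JUN, EGR1 and MYC do, and control replicate 1 is the highest control for 7 of the 9 genes.

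Of the FOS family, FOSL1 and FOSL2 rose and FOS did not pass. FOS encodes the prototype subunit, a strong activator when paired with JUN (Entrez gene 100144486, chromosome 7, 104293827 to 104296290, 4 exons; all positions are on Sscrofa10.2 and counted from 1). FOS was at 35.5, 45.6, 22.2 and 48.2 CPM in pregnant replicates 1 to 4, against 101, 33.4, 51.8 and 63.6 CPM in control replicates 1 to 4. Control replicate 1 was the highest of the 8 libraries and pregnant replicate 3 the lowest, and the values of the other 6 libraries were interleaved between the groups. The log2 change was −0.72 ± 0.33 with a 95% interval of −1.46 to 0.01 (edgeR adjusted p = 0.153), and it was −0.37 without control replicate 1.

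FOSL1 encodes FRA1, a subunit without the strong activation domain of FOS and known from invasive and migrating cells (Entrez gene 100525205, chromosome 2, 5534178 to 5540198, 4 exons). Its reads numbered 58, 198, 156 and 175 in pregnant replicates 1 to 4, against 28, 14, 21 and 17 in control replicates 1 to 4. These correspond to 2.05, 5.17, 5.16 and 5.34 CPM in pregnant animals and 0.95, 0.419, 0.697 and 0.487 CPM in controls. Pregnant replicate 1 stood well below the other pregnant libraries but above every control. FOSL1 had the largest fold change among the 9 genes, 6.96-fold (log2 change 2.80 ± 0.38, edgeR adjusted p = 0.000561), from the lowest level of the set in both groups.

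FOSL2 encodes FRA2, the other FOS-related subunit (Entrez gene 100623777, chromosome 3, 117487246 to 117491123, 3 exons). It was at 156, 169, 137 and 178 CPM in pregnant replicates 1 to 4, against 49.5, 57.4, 54.6 and 107 CPM in control replicates 1 to 4. The pregnant values were all above the highest control, which was control replicate 4, the library that also stood apart on the first principal component. FOSL2 rose by 1.25 ± 0.23 (edgeR adjusted p = 0.00309), and by 1.57 without control replicate 4.

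The JUN proteins are the obligate partners of FOS proteins. JUN itself is the main activating partner (Entrez gene 396913, chromosome 6, 141231121 to 141232331, a single exon). JUN was at 225, 167, 135 and 168 CPM in pregnant replicates 1 to 4, against 134, 133, 106 and 175 CPM in control replicates 1 to 4. Of the pregnant animals only replicate 1 lay above the highest control. The log2 change was 0.34 ± 0.18 with a 95% interval of −0.07 to 0.75 (edgeR adjusted p = 0.22).

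JUNB is a weaker activator that can oppose JUN on some promoters (Entrez gene 100523358, chromosome 2, 66505143 to 66507023, a single exon). It was at 111, 111, 95.95 and 102 CPM in pregnant replicates 1 to 4, against 70.95, 29.6, 45.6 and 49.8 CPM in control replicates 1 to 4. The pregnant values lay close together, with a coefficient of variation of 7.04%, against 34.8% in controls. JUNB rose by 1.10 ± 0.22 (edgeR adjusted p = 0.00479).

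ATF3, a related leucine zipper protein that pairs with JUN proteins and is induced by many kinds of stress, often acts as a repressor (Entrez gene 100738612, chromosome 9, 143690561 to 143703885, 4 exons). ATF3 was at 89.8, 78.2, 100.02 and 106 CPM in pregnant replicates 1 to 4, against 50.8, 12.7, 16.3 and 8.79 CPM in control replicates 1 to 4. Control replicate 1 was well above the other controls and still below every pregnant animal. ATF3 rose by 2.08 ± 0.49 (edgeR adjusted p = 0.0157), and by 2.92 without control replicate 1. The tables hold a second ATF3 transcript, with 0.939 of the mean count of the first and a log2 change of 2.11 ± 0.50. How reads common to both were assigned is not given in the sources used here, and the second is not counted as a separate result.

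EGR1 and MYC are immediate early transcription factors outside the AP-1 family. EGR1 is a zinc finger protein (Entrez gene 100520726, chromosome 2, 146156088 to 146159946, 2 exons). It was at 203, 162, 165 and 171 CPM in pregnant replicates 1 to 4, against 177, 145, 152 and 119 CPM in control replicates 1 to 4. The ranges overlapped, and the log2 change was 0.24 ± 0.14 with a 95% interval of −0.07 to 0.55 (edgeR adjusted p = 0.256).

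MYC pairs with MAX and drives genes of growth and ribosome production (Entrez gene 448810, chromosome 4, 12778451 to 12783666, 3 exons). It was at 28.7, 26.3, 26.04 and 24.9 CPM in pregnant replicates 1 to 4, against 41.4, 30.25, 20.7 and 34.8 CPM in control replicates 1 to 4. All pregnant values lay inside the control range. The log2 change was −0.26 ± 0.19 with a 95% interval of −0.68 to 0.15 (edgeR adjusted p = 0.357).

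DUSP1 encodes a phosphatase that inactivates MAP kinases, which switch on FOS and JUN, and is itself an immediate early gene (Entrez gene 100522469, chromosome 16, 55768414 to 55771512, 4 exons). It was at 569, 322, 343 and 447 CPM in pregnant replicates 1 to 4, against 207, 83.7, 95.4 and 107 CPM in control replicates 1 to 4. Replicate 1 was the highest in both groups, and the groups did not overlap. DUSP1 rose by 1.77 ± 0.30, a 3.41-fold difference (edgeR adjusted p = 0.0019).

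**Figure D2:**
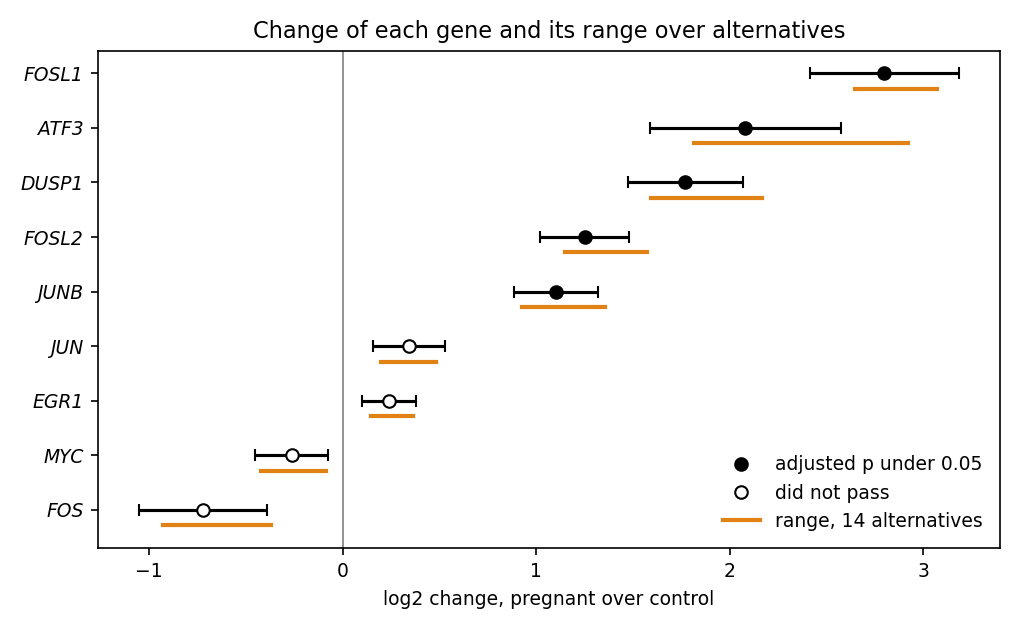
Log2 change of each gene, pregnant over control, with its SE as the black bar and a filled point for an adjusted p under 0.05. The orange line spans the values over 14 alternatives, and FOSL1, ATF3, DUSP1, FOSL2 and JUNB stay above 0 and passed in all 14.

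Set beside each other by level per length, in CPM per kb of exon model, the genes took a different order in the groups. In pregnant animals DUSP1 (205 ± 55.2, SD, n = 4), JUN (143 ± 30.8) and FOSL2 (129 ± 14.1) led and overlapped as neighbours. JUNB, EGR1, ATF3 and FOS followed at 55.9 ± 3.93, 55.6 ± 6.08, 46.9 ± 6.08 and 33.1 ± 10.3, each overlapping the next, and then MYC at 10.7 ± 0.659 and FOSL1 at 2.58 ± 0.924. In controls JUN was first at 113 ± 23.7 and overlapped DUSP1, and DUSP1, FOS, FOSL2 and EGR1 at 60.2 ± 27.8, 54.7 ± 25.1, 54.4 ± 21.7 and 47.1 ± 7.60 overlapped as neighbours. JUNB was at 26.1 ± 9.06, MYC at 12.9 ± 3.54, ATF3 at 11.1 ± 9.71 and FOSL1 at 0.371 ± 0.139. The deposited models span 1143 exonic bases for FOS, 1211 for JUN and 1235 for FOSL2, against 3148 for EGR1, and models that lack untranslated ends would shift such levels.

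Within the FOS family, FOSL2 held the larger share in every pregnant animal, and FOS or FOSL2 in controls. FOSL2 held 79.6%, 76.1%, 83.2% and 76.05% of the summed level per length of FOS, FOSL1 and FOSL2 in pregnant replicates 1 to 4, against 31.0%, 61.2%, 49.2% and 60.8% in control replicates 1 to 4. FOS held 14.5% to 22.3% in pregnant animals and 38.5% to 68.6% in controls, without overlap. FOSL1 held 0.754% to 2.25% in pregnant animals and 0.199% to 0.451% in controls. The summed level of the 3 genes was 134 to 189 CPM per kb in pregnant animals and 75.9 to 143 in controls, so these ranges overlapped.

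The difference between changes was tested for all 4 pairs of matched genes within the FOS and JUN families. JUND, like FOSB, matched no row, so neither family is complete. The measure was the log2 ratio of the CPM of each pair in each library (two-sided exact permutation test over the 70 splits of 4 against 4, where the smallest possible p is 0.0286). The log2 ratio of FOSL2 to FOS was 2.13 ± 0.35 in pregnant animals and 0.14 ± 0.85 in controls (SD, n = 4; exact p = 0.0286, adjusted p = 0.0571 over the 4 pairs). That of FOSL1 to FOS was −3.13 ± 0.82 in pregnant animals and −6.57 ± 0.38 in controls (n = 4 each; exact p = 0.0286, adjusted p = 0.0571). Neither ratio overlapped between the groups, and after adjustment no pair passed. A pair at the smallest possible p could pass only if most of the 4 pairs reached it. The adjusted p therefore does not measure how far these ratios differ. The ratios of FOSL1 to FOSL2 (difference 1.45) and of JUNB to JUN (difference 0.82) overlapped between the groups (exact p = 0.0571 and adjusted p = 0.0571 for each).

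**Figure D3:**
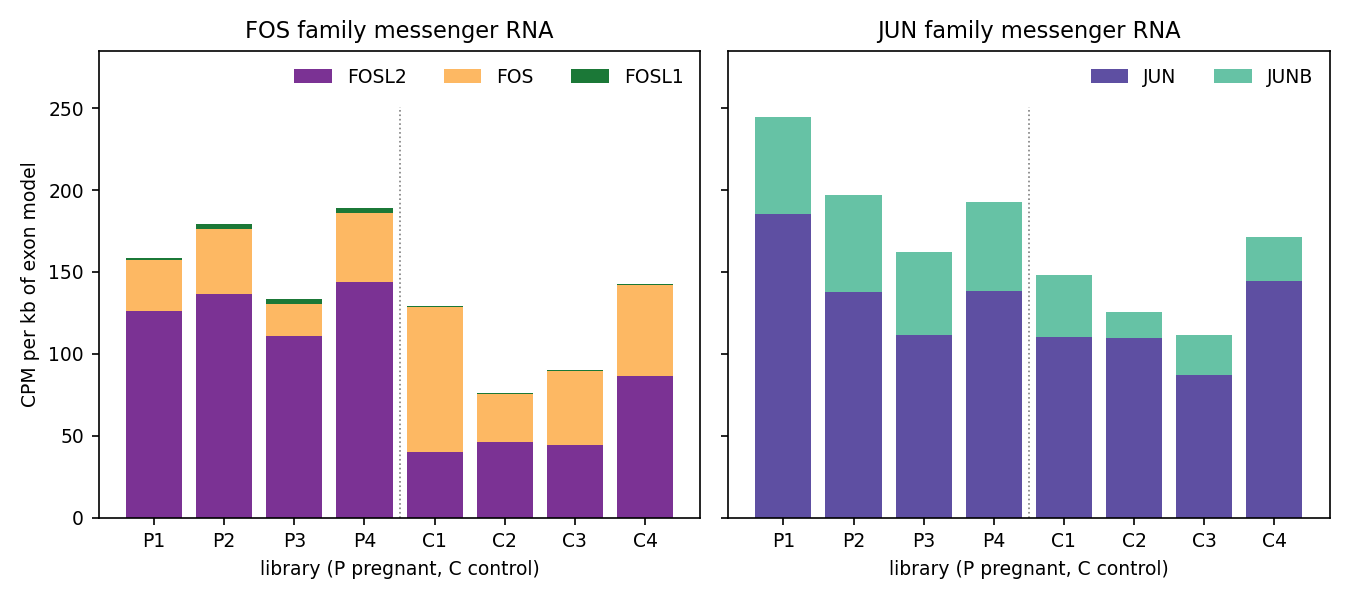
Stacked level per length (CPM per kb of exon model, linear axis from 0) of the FOS family (left) and the JUN family (right) in each library, P1 to P4 pregnant and C1 to C4 control. FOSL2 forms 76.05% to 83.2% of the FOS family bar in pregnant animals and 31.0% to 61.2% in controls. FOSB and JUND matched no row and are not in the bars.

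Animals of the same group differed from each other in these genes. Among controls, replicate 1 was the highest for 7 of the 9 genes (all but FOSL2 and JUN), where it was the highest control for 31.6% of all transcripts tested. It was also the highest control for 12 of 25 other immediate early genes, 6 of 7 T cell markers and 5 of 6 epithelial markers. Its summed level of T cell markers was 71.8 CPM, against 28.6 to 40.7 CPM in the other controls, and that of 8 heat shock genes was 1834 CPM, against 1599.6 to 1765 CPM. Its macrophage and dendritic cell markers summed to 661 CPM, against 350.2 to 519 CPM in the other controls. Its epithelial markers summed to 3060 CPM, against 2047 to 2629 CPM. Its neutrophil sum was also the highest of the controls, whereas its stromal, endothelial and smooth muscle sums were not. Whether any of these has a part in its high immediate early levels was not tested. The coefficient of variation was lower in pregnant animals than in controls for 8 of the 9 genes, and for 6 of 9 without control replicate 1 or without control replicate 4. Without either of these libraries the same 5 genes passed. The share of all transcripts tested with a lower coefficient of variation in pregnant animals was not computed. Whether the lower spread is particular to these genes was therefore not tested.

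Markers of several cell types also differed between the groups, some higher and some lower in pregnant animals. The counts that follow stand beside 11.2% of all transcripts tested called higher and 10.1% called lower. Of 7 T cell markers 6 rose, and their sum was 96.04 to 162 CPM in pregnant animals and 28.6 to 71.8 CPM in controls. Of 6 macrophage and dendritic cell markers 6 rose (sum 1076 to 1432 CPM in pregnant animals and 350.2 to 661 CPM in controls). Of 5 tested neutrophil markers 3 rose, all of them S100 genes that other cells also express, CXCR2 and ELANE did not pass, and MPO had 0 reads in every library (sum 141 to 513 CPM in pregnant animals and 4.19 to 7.60 CPM in controls). Of 6 epithelial markers 3 fell and 1 rose, of 6 smooth muscle markers 4 fell and none rose (sum 421 to 627 CPM in pregnant animals and 679 to 1089 CPM in controls), and of 6 endothelial markers 2 rose (sum 938 to 1258 CPM in pregnant animals and 682 to 1149 CPM in controls). Of 6 stromal markers 2 rose and 1 fell, and of the 3 only THY1 passed under every alternative. The part of these cell types in the changes of the AP-1 genes was not tested.

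Of 12 tested genes of other leucine zipper proteins that can pair with AP-1 subunits, 6 rose, none fell and 6 did not pass, beside 11.2% higher and 10.1% lower over all transcripts tested. Their median log2 change was 0.75. The number higher was 4 to 7 over the alternatives and 3 passed under every one, BATF2 and NFE2L2 among them. BATF did not pass in 7 of the 14 alternatives, BATF3 in 3 and MAFK in 1. BATF2, a partner of JUN proteins that is induced by interferon in human and mouse cells, was at 47.04 ± 13.9 CPM in pregnant animals and 4.75 ± 0.655 CPM in controls (log2 change 3.31 ± 0.24, edgeR adjusted p = 1.61e-05). NFE2L2, which drives genes of the oxidative stress response, was at 264 ± 19.4 CPM in pregnant animals and 123 ± 14.8 CPM in controls (log2 change 1.10 ± 0.12, edgeR adjusted p = 0.000164).

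Of 25 other immediate early genes tested 11 rose, 2 fell and 12 did not pass, with a median log2 change of 0.37. Over all transcripts tested 11.2% were called higher and 10.1% lower. Under every alternative 7 of the 11 and both of the 2 passed. EGR4 had 0 reads. ZFP36, which destabilises messenger RNAs with AU-rich elements, rose by 1.34 ± 0.20 and was at 145 ± 4.95 CPM in pregnant animals and 57.1 ± 18.2 CPM in controls (edgeR adjusted p = 0.000987). GADD45B, a growth arrest and stress gene, rose by 1.10 ± 0.19. CTGF, a matrix protein gene activated by YAP and TAZ, fell by 1.49 ± 0.19 on the log2 scale, with 792 ± 166 CPM in pregnant animals and 2218 ± 432 CPM in controls, and the kinase gene PLK2 fell by 1.00 ± 0.23.

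Of 12 tested genes that restrain MAP kinase signalling 3 rose, the phosphatase genes DUSP10, DUSP2 and DUSP4, and 2 fell, SPRY1 and SPRED2, whose products act near the receptor. The other 7 did not pass, among them the phosphatase genes DUSP5, DUSP7 and DUSP14. DUSP10, which prefers JNK and p38, was at 11.9 ± 1.20 CPM in pregnant animals and 2.22 ± 0.929 CPM in controls (log2 change 2.42 ± 0.29, edgeR adjusted p = 0.000265). DUSP2 rose by 1.20 ± 0.24. SPRY1 and SPRED2 fell by 0.73 ± 0.16 and 0.60 ± 0.14 on the log2 scale, and the groups overlapped for SPRY1. DUSP4 was named after its values were seen, to complete the count. DUSP6, DUSP8 and DUSP16 matched no row and are not among the 12. The median log2 change of the 12 was 0.07. Over all transcripts tested 11.2% were called higher and 10.1% lower.

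Of 17 kinases and factors upstream of the immediate early genes 3 passed, which is 17.6%, beside 21.3% of all transcripts tested. Those that did not pass include MAPK8 and MAPK14, the genes of JNK1 and p38 alpha. MAPK3, RPS6KA5 and MKL2 matched no row and were not tested. MKL1, a cofactor of SRF, rose by 0.57 ± 0.12 (edgeR adjusted p = 0.00574). MAP3K8 rose by 0.83 ± 0.22, and SRF, which binds the FOS and EGR1 promoters, fell by 0.42 ± 0.12 on the log2 scale. MAP3K8 did not pass without pregnant replicate 2, 3 or 4 or control replicate 3, and SRF did not pass without pregnant replicate 2 or 3 or control replicate 1, 2 or 3 (highest edgeR adjusted p = 0.0677 and 0.0772).

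Of 13 matched textbook AP-1 targets 10 passed the filter on low counts and were tested. Of these 10, 5 rose and none fell, beside 11.2% higher and 10.1% lower over all transcripts tested. Their median log2 change was 0.44, and MMP9, PLAU, VEGFA, IL6 and CCND1 did not pass. PLAUR, the urokinase receptor gene, was at 39.3 ± 3.74 CPM in pregnant animals and 11.8 ± 4.86 CPM in controls (log2 change 1.74 ± 0.27, edgeR adjusted p = 0.00108), and the integrin gene ITGAV rose by 1.49 ± 0.27. These were the 2 that passed under every alternative. The number higher was 2 without pregnant replicate 2 or control replicate 2 or 3, and 3 without pregnant replicate 4 or control replicate 1 or with the replicate block.

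Of 11 tested genes of the MYC network 1 rose and 2 fell. MXD1, a repressor that competes with MYC for MAX, rose by 1.03 ± 0.20 (edgeR adjusted p = 0.0046). MXD3 and MLXIPL fell by 0.56 ± 0.18 and 0.99 ± 0.31 on the log2 scale but did not pass in 7 and 10 of the 14 alternatives (highest edgeR adjusted p = 0.124 and 0.115). Of 11 textbook MYC targets only LDHA rose (0.62 ± 0.16, edgeR adjusted p = 0.0184), and it did not pass without pregnant replicate 2, 3 or 4 (highest adjusted p = 0.0549). These shares, 27.3% and 9.09%, stand beside 21.3% of all transcripts tested.

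Of 10 tested genes of the integrated stress response 1 passed (10.0%, beside 21.3% of all transcripts tested). Those that did not pass include ATF4, the known activator of ATF3, at 234 ± 31.0 CPM in pregnant animals and 245 ± 17.8 CPM in controls (SD, n = 4 each). CEBPG passed as higher with DESeq2, without control replicate 4 and with the replicate block, and ASNS did so without pregnant replicate 1. VLDLR, a lipoprotein receptor gene, fell by 1.08 ± 0.16 on the log2 scale (edgeR adjusted p = 0.000728). Of 8 tested heat shock genes, which respond to heat and tissue handling, HSPB1 fell by 0.52 ± 0.15 and 7 did not pass (12.5% passed), and HSPB1 did not pass without pregnant replicate 2 or 4 or control replicate 1 (highest edgeR adjusted p = 0.0902). Without control replicate 1 BAG3, a co-chaperone gene, passed as higher. The summed level of the 8 was 1400.2 to 1942 CPM in pregnant animals and 1599.6 to 1834 CPM in controls. The heat shock genes HSPA1A, HSPA1B, HSPA1L and HSPA6 matched no row, so neither the count nor the sum covers them.

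**Figure D4:**
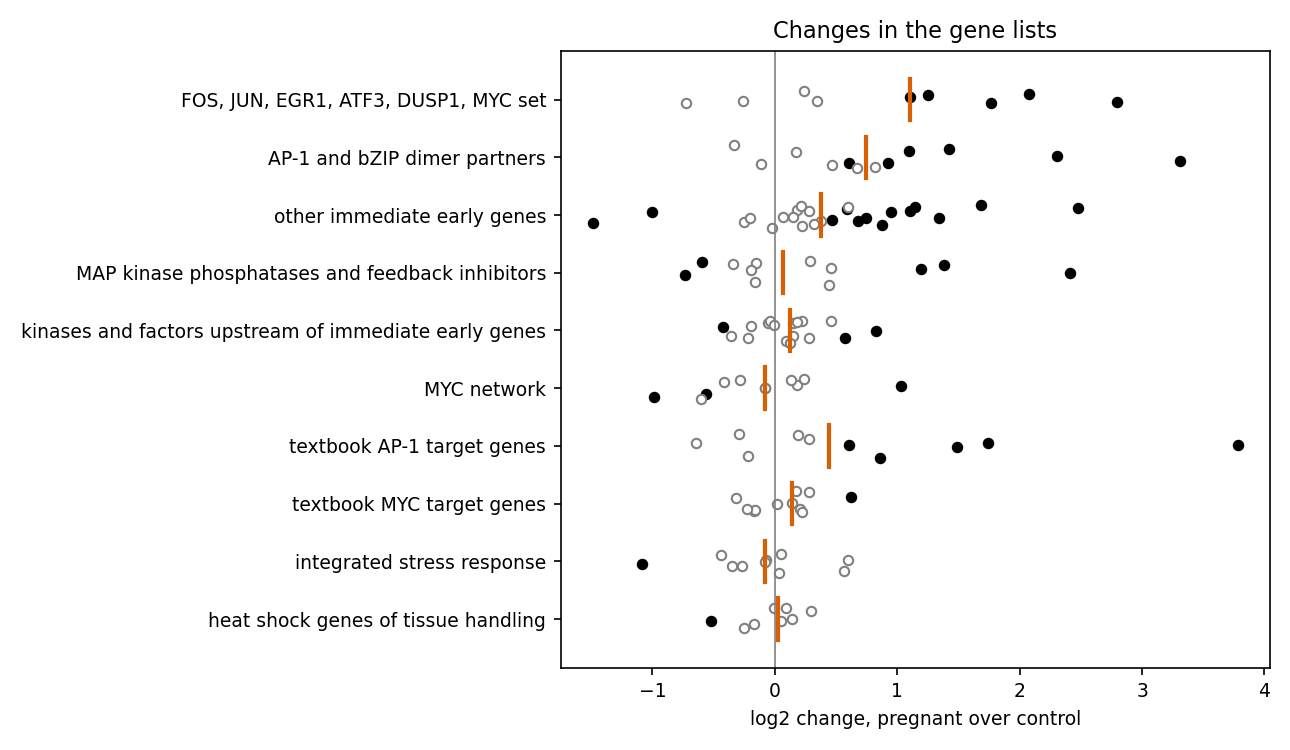
Log2 change, pregnant over control, of each tested member of the gene lists (points, filled for an adjusted p under 0.05, with vertical scatter only to separate them) and the median of each list (orange bar). The top row holds the 9 AP-1 and immediate early genes, with a median of 1.10, of which 5 are filled.

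Genes whose levels varied between animals like those of FOS, FOSL1 and MYC were found from deviations from the group mean of log2 CPM in the 8 libraries, among 7177 named genes with a mean of at least 10 CPM. The highest Pearson correlations were with ZFYVE28 (0.95), SPR (0.94) and PPT2 (0.93) for FOS, with HADHB (0.96), FOXJ1 (0.95) and GAL3ST4 (0.92) for FOSL1, and with SIAH2 (0.97), CNTROB (0.96) and SAP25 (0.95) for MYC. Values this high are picked from many candidates over few animals, the genes share libraries and scaling, and no test was made.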

How the data were processed

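Whole-number counts for each transcript were deposited by the authors for 8 libraries, with exon models on Sscrofa10.2. CASAVA 1.6, TopHat 1.4, Cufflinks 1.3 and DESeq appear in the submitters' processing notes, with no roles. Which program counted the reads, and how, is not stated there, and the kit in the labels does not mark strand. None of the 9 models overlaps another gene. Symbols came from a RefSeq table of assembly Sscrofa11.1, by Entrez ID or accession. Listed genes that matched no row were left out of the gene lists, so most lists are incomplete.

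The counts were fitted with edgeR 4.0.16 in R 4.3.3 (robust quasi-likelihood fit, TMM scaling, group as the only term, low transcripts removed by filterByExpr at a minimum of 10 counts), with intervals of 95% from the moderated t distribution. The SE was taken as the absolute log2 change divided by the square root of the F statistic, and the intervals use it. CPM use the TMM-scaled library sizes and log2 CPM a prior count of 2. Alternatives were DESeq2 1.42.0 and its size factors, limma 3.58.1 voom, no filter, 1 transcript per gene, each library left out, and a replicate block. The fit was run on simulated counts with 200 changed transcripts, far fewer than the 4009 called here. That run therefore does not check its error rate at the share of changes called here. Members and lists were chosen with earlier results of these data known. Named were all members and, of each list of related genes, the 2 passing members with the smallest p in each direction. DUSP4, BATF, BATF3, MAFK, BAG3, CEBPG, ASNS and members named as not passing lie outside this rule, as do the ratio tests.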

Additional observations from a re-analysis of the deposited data

Results flagged for a closer look

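In 18 groups of 4 values (9 genes in pregnant and in control animals) 2 had a sample far from the other 3, where chance flags about 1 group in 20. FOSL1 in pregnant replicate 1, at 2.05 CPM against 5.16 to 5.34 CPM in the other pregnant animals, lay 0.946 of the group's range from its nearest neighbour. FOSL2 in control replicate 4, at 107 CPM against 49.5 to 57.4 CPM in the other controls, lay 0.862 of the range from its nearest neighbour. Both genes passed without that library, with log2 changes of 3.04 for FOSL1 and 1.57 for FOSL2.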

How the results depend on the processing

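Over the 14 alternatives every one of the 9 genes kept its direction and its side of the threshold (126 values in all), and the same 5 genes passed each time. The log2 change ranged from 2.64 to 3.07 for FOSL1, 1.81 to 2.92 for ATF3, 1.59 to 2.17 for DUSP1, 1.15 to 1.57 for FOSL2 and 0.92 to 1.35 for JUNB, and the highest adjusted p was 0.0479, for ATF3 without control replicate 2. For the genes that did not pass it ranged from −0.93 to −0.37 for FOS, 0.19 to 0.48 for JUN, 0.15 to 0.36 for EGR1 and −0.42 to −0.09 for MYC, and the lowest adjusted p was 0.0532, for FOS without control replicate 2. The transcripts past the threshold numbered 4009, and 2864 to 4988 over the alternatives. FOSB gave no value under any setting. Same-numbered animals are separate animals, and the correlation of their deviations ran from −0.093 to 0.186. Whether a shared number marks a shared day or batch was not tested. The replicate block called 3883 transcripts and the same 5 genes. Alternatives for the gene lists and family ratios were added after the data were seen. With each library left out in turn, the pregnant minus control log2 ratio ranged from 1.596 to 2.201 for FOSL2 over FOS, 3.10 to 3.77 for FOSL1 over FOS, 1.10 to 1.79 for FOSL1 over FOSL2 and 0.61 to 1.03 for JUNB over JUN. With 4 animals a group, a permutation test of single values cannot go below 0.0286, and the low counts of FOSL1 in controls limit the precision of its fold change.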
